A study of Homo sapiens with 45 samples.

Results

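Cultures collected on day 7 of a human motor neuron differentiation were compared with cultures collected on day 6, gene by gene. The 6 libraries compared, 3 of each day, were picked by the day in their labels from 45 libraries in all, 3 on each of 15 days between day 0 and day 15. Of 58233 genes in the table of read counts, 19436 had enough reads for testing.

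The cells came from H9, a human embryonic stem cell line in wide use. Before day 0 they were held as neuromesodermal progenitors, the stem-like cells of the body axis that can form spinal cord or mesoderm, in CHIR99021 (an activator of Wnt signalling), bFGF, SB431542 and DMH1. From day 0 all cultures, those of days 6 and 7 included, received 100 nM retinoic acid (RA) and 500 nM SAG, an agonist of Sonic hedgehog signalling, and the medium was changed every other day. As labelled, the groups differ in the day of collection alone. The comparison held no cultures of days 6 or 7 without RA and SAG. For the day 0 libraries, which were part of the fit over all days, no RA or SAG dose was recorded. Whether a medium change fell between days 6 and 7 is not stated. The labels call each of the 3 libraries of a day a biological replicate without saying whether they were separate differentiations, so the tests measure the spread between these libraries, which may in part be technical.

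In the developing spinal cord, dividing progenitors exposed to Hedgehog signal and retinoic acid express OLIG2, then leave the cell cycle and switch on the homeodomain factors MNX1, ISL1 and ISL2, which mark motor neurons. New motor neurons next assemble the cholinergic machinery, extend an axon filled with neurofilament, and acquire channels and receptors. Cells that have not left the cycle keep progenitor genes such as PAX6, HES5 and SOX2 and the enzymes of DNA replication.

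The 6 libraries held 27936485 to 37376154 counts each, with 2.244% to 3.086% of them from mitochondrial genes. No pair of libraries of a day agreed within sampling noise, so none was counted as a repeat of another. The labels describe all samples as neural progenitors. SOX2 stood at 226 to 237 CPM (counts scaled to library size) on day 6 and 209 to 215 CPM on day 7, while the neuronal tubulin TUBB3 stood at 1123 to 1350 CPM over the 6 libraries, so both progenitor and neuronal RNA were present on both days. In such bulk samples, fewer cells of a type and less RNA per cell cannot be told apart. Of the markers of other cell types, SOX10 and TFAP2A (neural crest), SOX17 (endoderm), CDH5 (endothelium), TP63 (surface ectoderm) and TBXT (neuromesodermal progenitor and mesoderm) were each below 1 CPM. Other members of these lists were not: the summed level in the 6 libraries was 34.6 to 52.4 CPM over 10 endoderm genes (mostly FOXA1), 71.9 to 114 CPM over 11 surface ectoderm genes (mostly KRT8), 14.8 to 17.4 CPM over 9 endothelial genes (mostly TIE1) and 191 to 212 CPM over 9 genes of pluripotent cells (DPPA4 the highest, POU5F1 and NANOG below 1 CPM). Their part in the results was not tested. The summed level of 10 microglial and blood genes was at most 0.622 CPM in any of the 6 libraries.

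Between days 6 and 7 some genes of motor neurons and of neuronal maturation rose, among them ISL2, ISL1, MNX1, SLC18A3 and NEFL, and some genes of progenitors and DNA replication fell, among them LIN28A, PAX6 and MCM2. By edgeR's quasi-likelihood test with Benjamini-Hochberg adjustment, 666 genes (3.43% of those tested) were higher on day 7 and 564 (2.9%) were lower at an adjusted p below 0.05, which is what "called", "rose" and "fell" mean throughout. The rises were the larger changes: the median called gene rose 1.33-fold, against a median of 1.17-fold among those that fell. At least 1.5-fold changes were 216 rises (1.11%) and 35 falls (0.18%), and 76 genes (0.391%) rose and 13 (0.0669%) fell by 2-fold or more. The 3 libraries of one day lay entirely apart from those of the other for 648 of the 666 and for 560 of the 564, beside 24.8% of all genes tested. Of the genes called, 626 that rose and 549 that fell were protein-coding.

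**Figure D1:**
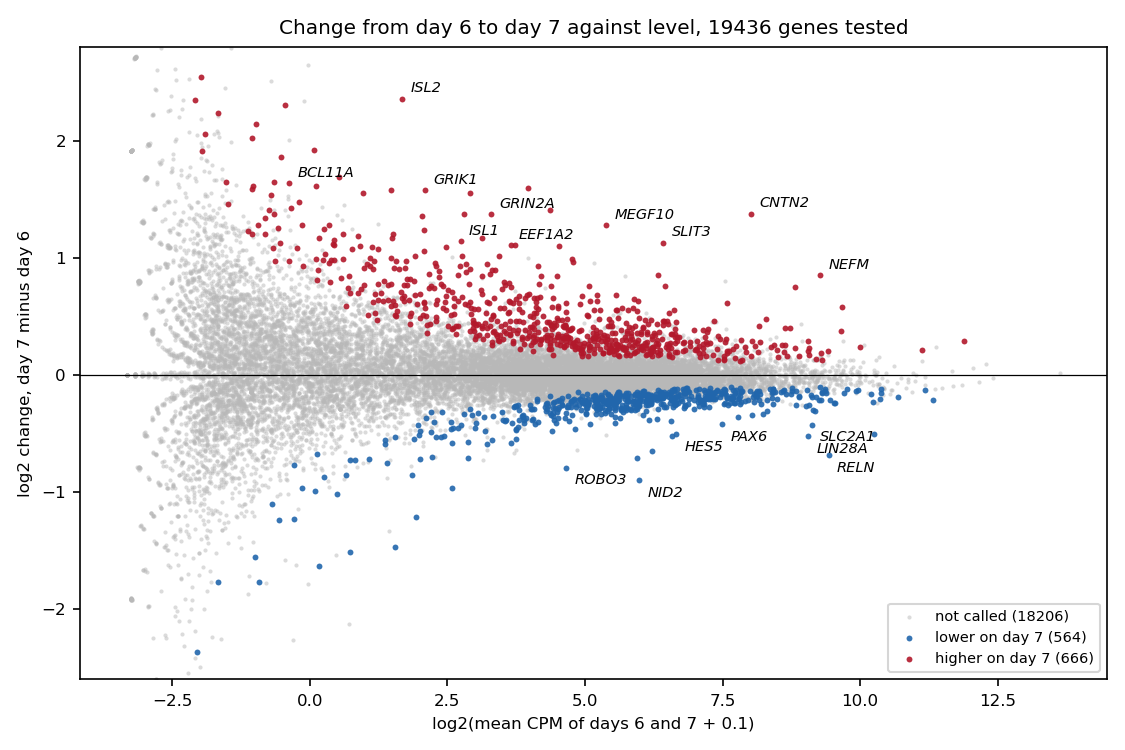
Log2 change from day 6 to day 7 (vertical axis) against the mean level of both days (horizontal axis, log2 of CPM plus 0.1) for the 19436 genes tested; each point is 1 gene, red for the 666 called higher, blue for the 564 called lower and grey for the rest. Most of the called points far from 0 are red, CNTN2 and NEFM among them; 113 genes lie beyond the vertical axis, 4 of them called.

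The count of called genes leaned on having all 3 libraries of each day. With 1 of the 6 libraries left out, 348 to 458 genes were called higher and 234 to 433 lower, the fewest rises without day 6 replicate 2 and the fewest falls without day 7 replicate 2. Without day 6 replicates 1, 2 and 3 in turn, 458, 348 and 443 rises were called; without day 7 replicates 1, 2 and 3 there were 361, 395 and 437. The falls numbered 328, 333 and 367 and then 280, 234 and 433. Among the 137 named genes that were called, 61 stayed called whichever library was left out.

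**Figure D2:**
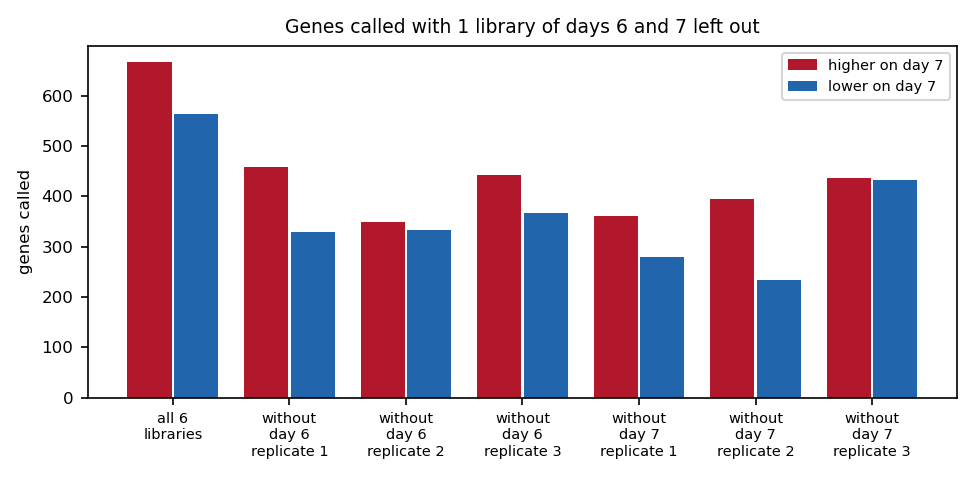
Number of genes called (vertical axis) higher (red) and lower (blue) on day 7, with all 6 libraries and with each library of days 6 and 7 left out in turn (horizontal axis). Every bar with a library left out is shorter than its bar with all 6, with 348 to 458 rises and 234 to 433 falls.

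The motor neuron factors ISL2, ISL1 and MNX1 rose. Of 18 motor neuron transcription factors tested, 4 rose, 1 fell and 13 were not called, with a list median log2 change of 0.31 beside 0.00373 over all genes tested. ISL2 (chr15:76336724-76342476, plus strand, GRCh38), a LIM-homeodomain factor of postmitotic motor neurons, stood at 1.15, 0.889 and 0.976 CPM in the 3 libraries of day 6 and at 5.66, 5.01 and 4.83 CPM on day 7. All day 7 libraries lay above all day 6 libraries, a log2 change of 2.36 ± 0.36 (standard error, SE; adjusted p = 8.2e-05). Its level had been 0.122 CPM on day 5 and went on to 14.2 CPM on day 8, its highest day.

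ISL1 (chr5:51383391-51394738, plus strand), the related factor that acts first in motor neurons, read 4.11, 3.95 and 4.26 CPM on day 6 and 9.69, 8.85 and 8.65 CPM on day 7. These groups did not overlap, and the log2 change was 1.14 ± 0.21 (adjusted p = 0.00079). MNX1 (chr7:156994051-157010651, minus strand), the homeodomain factor also called HB9 that holds the motor neuron fate against that of interneurons, went from 9.13, 7.4 and 8.52 CPM to 19.4, 16.8 and 18 CPM. Every day 7 library lay above every day 6 library, with a log2 change of 1.11 ± 0.25 (adjusted p = 0.0049). ISL1, ISL2 and MNX1 each stayed called with any 1 library left out. They lost their calls (adjusted p = 0.12, 0.06 and 0.26) without replicate 1 of every day, as did 117 of the 137 named called genes in all, and each had its highest mean on day 8.

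FOXP2, a forkhead factor of some spinal neurons, also rose, with a log2 change of 0.60 ± 0.16 (adjusted p = 0.019). It lost its call without day 6 replicate 1 (adjusted p = 0.085), day 6 replicate 3 (0.053) or day 7 replicate 2 (0.12). LHX3, which pairs with ISL1 in medial-column motor neurons and also marks V2a interneurons, went from 13 ± 0.672 CPM to 16.1 ± 0.876 CPM (SD, n = 3 each) without passing the test (log2 change 0.31 ± 0.19, adjusted p = 0.39).

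Some genes of the cholinergic machinery rose as well. Of 20 cholinergic and motor neuron effector genes, 6 rose and 1 fell, and without day 6 replicate 1 the rises numbered 3. SLC18A3 (chr10:49610301-49612720, plus strand), the vesicular acetylcholine transporter, stood at 7.98, 6.29 and 6.92 CPM on day 6 and at 14.7, 14.8 and 13.3 CPM on day 7, a change of 1.02 ± 0.16 (log2, adjusted p = 0.00012). CHAT, choline acetyltransferase, which makes the transmitter, read 0.909, 0.64 and 0.787 CPM and then 1.86, 1.56 and 1.69 CPM (log2 change 1.12 ± 0.24, adjusted p = 0.0034). Neither gene's days overlapped. SLC18A3 lies inside CHAT on the same strand, so the share of reads given to each is uncertain, and both went on rising to their highest means on day 13.

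SLIT3, a secreted guidance ligand also expressed by motor neurons, rose from 56.2, 50.8 and 53.9 CPM on day 6 to 122, 108 and 122 CPM on day 7 (log2 change 1.13 ± 0.13, adjusted p = 1.1e-06). The choline transporter SLC5A7 went from 2.23 ± 0.269 CPM to 4.24 ± 1.06 CPM (log2 change 0.91 ± 0.23, adjusted p = 0.012) and lost its call without day 6 replicate 1 (0.06) or day 7 replicate 3 (0.093). SLC10A4, a vesicular protein of cholinergic neurons, rose by 0.98 ± 0.29 (adjusted p = 0.037) and lost its call without 4 of the 6 libraries (0.098 to 0.16). The intermediate filament peripherin, PRPH, stood at 15.8 ± 1.84 CPM and 14.2 ± 0.496 CPM with overlapping libraries (adjusted p = 0.57).

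**Figure D3:**
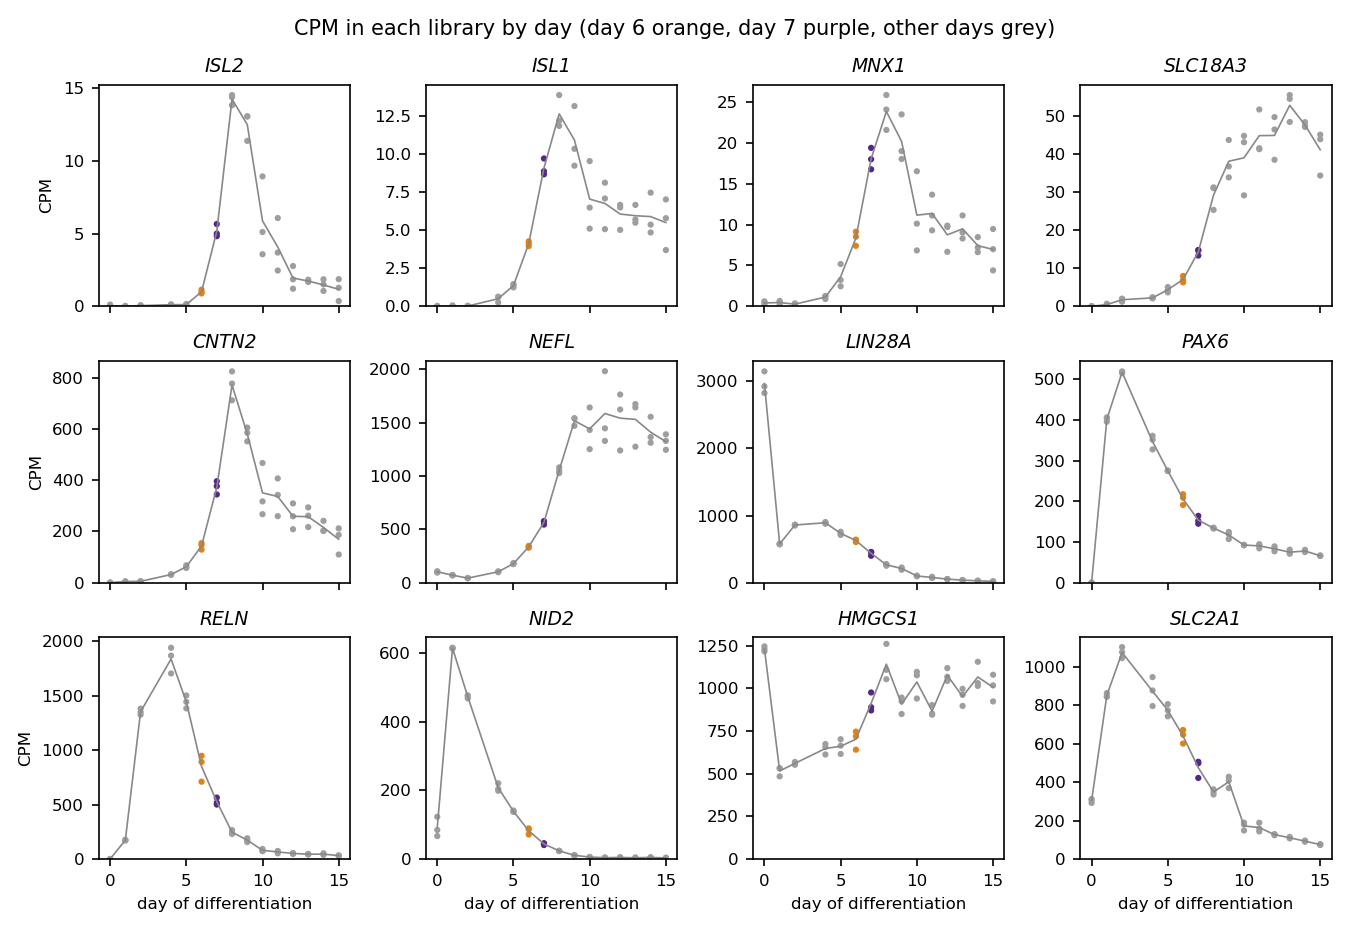
CPM (vertical axes, linear, from 0) of 12 genes in each library by day of differentiation (horizontal axes); points are libraries, orange on day 6, purple on day 7 and grey on other days, and lines join the daily means. The motor neuron genes ISL2, ISL1 and MNX1 climb through days 6 and 7 to a maximum on day 8, SLC18A3 and NEFL climb on to later days, and LIN28A, PAX6, RELN, NID2 and SLC2A1 fall through days 6 and 7.

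General neuronal genes moved in the same direction. Of 34 pan-neuronal genes, 11 rose and 0 fell, with 33 of the 34 changes above 0 and a median of 0.396. NEFL, the light neurofilament chain, read 335, 328 and 344 CPM on day 6 and 575, 544 and 576 CPM on day 7 (log2 change 0.75 ± 0.11, adjusted p = 7.1e-05). NEFM, the medium chain, went from 465, 426 and 440 CPM to 862, 695 and 842 CPM (log2 change 0.85 ± 0.18, adjusted p = 0.004). Both neurofilament genes were higher in every day 7 library than in any day 6 library and kept their calls with any 1 library left out. The vesicle protein CHGA rose by 0.61 ± 0.16 (adjusted p = 0.018), losing its call without day 6 replicate 2 (0.087) or day 7 replicate 1 (0.083), and DCX, which binds microtubules in migrating neurons, rose by 0.58 ± 0.17 (adjusted p = 0.031) but was not called without any 1 of the 6 libraries (0.059 to 0.11). The count of 11 became 5 without day 6 replicate 2, 6 without day 6 replicate 3, 4 without day 7 replicate 1 and 7 without day 7 replicate 3.

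Other pan-neuronal genes did not pass the test. TUBB3 stood at 1189 ± 79.8 CPM and 1301 ± 76.5 CPM with overlapping libraries (log2 change 0.13 ± 0.09, adjusted p = 0.49). STMN2, a microtubule regulator of growing axons, went from 412 ± 13.9 CPM to 557 ± 68 CPM and the RNA-binding protein gene ELAVL4 from 127 ± 7.37 CPM to 164 ± 14.8 CPM. Both had libraries that did not overlap and neither passed the test (adjusted p = 0.13 and 0.19), although both were called in a fit of days 6 and 7 alone.

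Axon guidance genes held the largest rise, and one of the larger falls, among called protein-coding genes that reached a mean of 10 CPM without overlap between the days. CNTN2 (chr1:205042937-205078284, plus strand), a cell adhesion molecule of outgrowing axons also known as TAG-1, read 154, 129 and 147 CPM on day 6 and 396, 345 and 377 CPM on day 7. The lowest day 7 library was over 2-fold above the highest day 6 library, and the log2 change was 1.38 ± 0.18 (adjusted p = 1.9e-05). ROBO3, the receptor that lets commissural axons cross the midline, fell from 33, 33.6 and 28.7 CPM to 20.6, 14.4 and 20 CPM, with no overlap (log2 change -0.79 ± 0.12, adjusted p = 3.3e-05). SEMA3C, a secreted semaphorin, rose from 57 ± 12.5 CPM to 103 ± 10.1 CPM (log2 change 0.85 ± 0.16, adjusted p = 0.0013). In all, 8 of 44 guidance genes rose (18.2%, beside 3.43% of all genes tested) and 1 fell (2.27%, beside 2.9%). Without day 7 replicate 1, 4 rose, and without day 6 replicate 3, 2 fell.

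Rises numbered 6 of 32 synaptic vesicle and active zone genes, 7 of 31 ion channel genes and 7 of 33 transmitter genes and receptors, with no called fall in these lists. GRIK1, a kainate-type glutamate receptor subunit, stood at 2.02, 1.99 and 2.2 CPM and then at 5.91, 5.71 and 7.06 CPM (log2 change 1.58 ± 0.24, adjusted p = 9.4e-05). GRIN2A, an NMDA receptor subunit, stood at 4.98, 5.01 and 6.21 CPM and then at 16.2, 13.2 and 12.8 CPM (1.37 ± 0.28, adjusted p = 0.0024). Its highest mean was on day 1 (50 CPM) and its lowest on day 5 (4.25 CPM). The sodium channel SCN3A went from 5.3 ± 0.556 CPM to 11.9 ± 1.07 CPM (1.17 ± 0.21, adjusted p = 0.00058).

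Each of those 3 genes was clear of overlap between the days. KCNA2, a voltage-gated potassium channel, rose by 0.76 ± 0.16 (adjusted p = 0.0032), and the synapsin SYN3 by 0.90 ± 0.16 (adjusted p = 0.00063), both keeping their calls whichever library was left out. With limma on the deposited TPM values KCNA2 was not called under any of 3 settings, its change going down to 0.0876. SYN3 overlaps TIMP3 on the other strand, and the strand used in counting is not given. The smaller members were less firm: the vesicle GTPase RAB3A and the active zone scaffold PCLO had adjusted p = 0.046 and 0.045, each lost without 5 of the 6 libraries. The 6 synaptic rises became 2 to 4, the 7 channel rises 3 to 6 and the 7 receptor rises 3 to 7 over the libraries left out; the lowest counts came without day 6 replicate 2 or day 7 replicates 1 or 3 (synaptic), day 6 replicate 2 or day 7 replicate 2 (channels) and day 7 replicate 1 (receptors).

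Factors linked to the time of neuron birth rose in 5 of 13 members, with 0 falls and 13 of 13 changes above 0. POU2F2, a POU-domain factor, read 15, 14.4 and 14.3 CPM on day 6 and 34.9, 29.8 and 29 CPM on day 7 (log2 change 1.10 ± 0.17, adjusted p = 0.00012), with no overlap. An antisense RNA that also rose lies across it. BCL11A rose from a low level, 0.314 ± 0.142 CPM to 1.02 ± 0.21 CPM (log2 change 1.64 ± 0.29, adjusted p = 0.00045). ZFHX4 rose from 85.7 ± 3.5 CPM to 112 ± 9.74 CPM (log2 change 0.39 ± 0.08, adjusted p = 0.0022). It was lower again on day 8, at 89 CPM (log2 change from day 7 -0.34, adjusted p = 0.0053). Between days 5 and 8 it was not called (0.09, adjusted p = 0.39). ZFHX2 and ZFHX3 also rose. Both lost their calls with limma on TPM under all 3 settings and under a correction for transcript length described below. The list counted 3 rises without day 6 replicate 2, day 6 replicate 3, day 7 replicate 1 or day 7 replicate 2.

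Other abundant large risers belonged to no neuronal list. MEGF10, an engulfment receptor, was at 22.3, 23.1 and 27.7 CPM on day 6 and 58.2, 60.1 and 59.5 CPM on day 7 (log2 change 1.28 ± 0.10, adjusted p = 1.1e-11). EEF1A2, the elongation factor form of neurons and muscle, was at 8.76, 7.08 and 7.87 CPM and then at 16.9, 18.8 and 15.2 CPM (1.11 ± 0.09, adjusted p = 1.1e-10). Day 7 stood clear of day 6 in both. FRY, a scaffold of kinase signalling, RGS8, a regulator of G protein signalling, and FABP3, a fatty acid carrier, rose by 0.99 ± 0.17, 0.96 ± 0.16 and 0.94 ± 0.14. All 5 stayed called with any 1 library left out.

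Among non-coding genes, 3 that reached 10 CPM rose by more than CNTN2; they were named after their values were seen. LINC00461 (chr5:88507546-88691041, minus strand) and MIR9-3HG (chr15:89361579-89398487, plus strand) are host transcripts of miR-9, a microRNA of the nervous system that acts in the passage from progenitor to neuron. LINC00461 read 7.17, 7.08 and 8.79 CPM on day 6 and 22.8, 26.5 and 20.8 CPM on day 7 (log2 change 1.60 ± 0.10, adjusted p = 1.7e-13). MIR9-3HG went from 3.84, 4.30 and 3.25 CPM to 11.8, 9.99 and 11.6 CPM (1.56 ± 0.11, adjusted p = 1.4e-12). Day 7 lay above day 6 in every library for both hosts, each had its highest mean on day 15, and the mature microRNA was not measured.

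AC010247.2 (chr19:42152569-42157523, plus strand) lies within POU2F2 on the other strand. It read 11.4, 11.2 and 10.8 CPM and then 29.7, 27.9 and 31.3 CPM, without overlap (log2 change 1.41 ± 0.22, adjusted p = 0.00015). Since the strand used in counting is not given, its reads and those of POU2F2 cannot be told apart. All 3 non-coding genes stayed called without any 1 library, though AC010247.2 lost its call when replicate 1 of every day was left out (0.07).

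Of 15 neural progenitor genes, 3 fell and 0 rose by edgeR (1 rose at an unadjusted p below 0.05, and DESeq2 called 1 higher), with 12 changes below 0 and a median of -0.121. LIN28A (chr1:26410778-26429722, plus strand), the RNA-binding protein that blocks let-7 maturation in stem cells, read 638, 640 and 606 CPM on day 6 and 453, 401 and 458 CPM on day 7 (log2 change -0.52 ± 0.06, adjusted p = 1.5e-06). PAX6, a paired-box factor of progenitors, went from 209, 218 and 191 CPM to 152, 145 and 164 CPM (log2 change -0.42 ± 0.06, adjusted p = 8.2e-06). For both genes all day 7 libraries lay below all day 6 libraries, and both calls held without any 1 library.

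HES5, a repressor induced by Notch signalling, read 135, 122 and 95.8 CPM on day 6 and 85, 70.8 and 93.3 CPM on day 7. Its days nearly touched (95.8 against 93.3 CPM), and the fall of 0.51 on the log2 scale (SE 0.13, adjusted p = 0.016) was lost without day 6 replicate 1 (0.12), day 6 replicate 2 (0.064) or day 7 replicate 2 (0.12). SOX2 went from 231 ± 5.5 CPM to 212 ± 3.13 CPM (log2 change -0.13 ± 0.07, adjusted p = 0.35).

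The motor neuron progenitor genes themselves did not pass the test. OLIG2 stood at 92.5, 91.5 and 92.7 CPM on day 6 and 103, 88.4 and 97.6 CPM on day 7, and NKX6-1 at 137 ± 15.1 CPM and 146 ± 9.11 CPM. The libraries of both genes overlapped (log2 changes 0.06 ± 0.11 and 0.09 ± 0.12, adjusted p = 0.85 and 0.79). None of 9 ventral and motor neuron progenitor genes was called by edgeR (4 had an unadjusted p below 0.05 upward and 1 downward, and DESeq2 called 3 higher), yet their median change was 0.538, since several low genes had changes near 1 with wide errors: the floor plate genes SHH (3.9 ± 0.706 CPM to 7.87 ± 1.93 CPM, adjusted p = 0.055) and FOXA2 (0.57 ± 0.128 CPM to 1.14 ± 0.0894 CPM, adjusted p = 0.19), which were chosen after their values were seen. NKX2-2, of the V3 domain, stood at 0.879 ± 0.146 CPM and 1.28 ± 0.0822 CPM (adjusted p = 0.27). In the neurogenic program NEUROG2, the proneural factor of this lineage, stood at 149 ± 7.02 CPM and 126 ± 11 CPM (adjusted p = 0.18), and the Notch ligand DLL1 at 150 ± 15.5 CPM and 141 ± 13.8 CPM (adjusted p = 0.84).

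Some genes of other progenitor and interneuron domains were called. Of 12 intermediate and dorsal progenitor genes, 2 fell (16.7%, beside 2.9% of all genes tested) and 0 rose. DBX2, of intermediate progenitors, went from 1.75 ± 0.19 CPM to 0.862 ± 0.226 CPM (log2 change -1.02 ± 0.23, adjusted p = 0.0047) and lost its call without day 7 replicate 1 (0.054). BHLHE22, a basic helix-loop-helix factor, fell by 0.57 on the log2 scale (SE 0.17, adjusted p = 0.039) and lost its call without 4 of the 6 libraries (0.09 to 0.2). Among 13 ventral interneuron genes, SOX14 and FOXP2 rose (15.4%, beside 3.43% of all genes tested) and VSX1 fell (7.69%, beside 2.9%). SOX14, of V2b interneurons, went from 2.42, 2.77 and 2.06 CPM to 5.03, 3.93 and 5.73 CPM without overlap (1.02 ± 0.22, adjusted p = 0.0044), a call that held without any 1 library. VSX1, a homeobox gene of V2 interneurons, went from 15.8 ± 2.97 CPM to 10.7 ± 0.615 CPM (-0.55 ± 0.16, adjusted p = 0.029) and lost its call without day 6 replicates 1 (0.12) or 2 (0.15) or day 7 replicates 1 (0.11) or 2 (0.094).

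The larger falls at a mean of 10 CPM or more were of matrix, adhesion and axon genes, among others. RELN (chr7:103471784-103989516, minus strand), the secreted glycoprotein reelin that guides neuron position, read 893, 949 and 712 CPM on day 6 and 565, 519 and 501 CPM on day 7 (log2 change -0.69 ± 0.11, adjusted p = 0.00013). NID2 (chr14:52004803-52069228, minus strand), the basement membrane protein nidogen-2, read 86.5, 89.3 and 71.7 CPM and then 45.4, 40.9 and 46 CPM (-0.90 ± 0.13, adjusted p = 3.1e-05). GRIP2, a scaffold protein, read 83.9, 82 and 63.8 CPM and then 48.3, 40.8 and 50.8 CPM (-0.72 ± 0.10, adjusted p = 8.2e-06). In each of them day 6 replicate 3 was the lowest of its day and still above every day 7 library. The protocadherin PCDH8, the receptor FGFR4 and alkaline phosphatase ALPL fell by 0.65, 0.59 and 0.52 on the log2 scale, and each of these 6 calls held without any 1 library.

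Genes of DNA replication fell together by small amounts. Of 29 S phase genes, 16 fell, 0 rose and all 29 changes were below 0, with a median of -0.2 and called changes between -0.31 (MCM2) and -0.17 (POLA1). MCM2, a subunit of the helicase that opens replication origins, read 363, 351 and 342 CPM on day 6 and 286, 273 and 292 CPM on day 7 (log2 change -0.31 ± 0.06, adjusted p = 0.0018). CHAF1A, a histone chaperone at the replication fork, went from 124 ± 4.52 CPM to 103 ± 5.27 CPM (-0.27 ± 0.06, adjusted p = 0.0036). Neither gene's days overlapped. PCNA, the sliding clamp, was at 240 ± 10 CPM and 223 ± 6.03 CPM with overlapping libraries (adjusted p = 0.34). The count of 16 became 10 without day 6 replicate 2, 9 without day 7 replicate 1 and 8 without day 7 replicate 2.

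Genes of mitosis moved less firmly. All 32 G2 and M phase genes had changes below 0, 8 of them called, with a median of -0.153. BUB1B, a spindle checkpoint kinase, went from 135 ± 4.7 CPM to 117 ± 2.7 CPM (log2 change -0.21 ± 0.05, adjusted p = 0.013), losing its call without day 6 replicate 2 (0.07) or day 7 replicate 1 (0.068). MKI67, the proliferation antigen, stood at 778, 742 and 706 CPM on day 6 and 768, 722 and 688 CPM on day 7, with nearly the same range (log2 change -0.03 ± 0.07, adjusted p = 0.87). The count of 8 became 5 without day 6 replicate 1, 0 without day 6 replicate 2, 3 without day 6 replicate 3, 1 without day 7 replicate 1 or day 7 replicate 2, and 3 without day 7 replicate 3. CDKN1C, a cyclin-dependent kinase inhibitor of cells leaving the cycle, rose from 54.2 ± 4.4 CPM to 66 ± 2.7 CPM (log2 change 0.28 ± 0.09, adjusted p = 0.04) and lost its call without any library except day 6 replicate 1 (0.062 to 0.18).

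Many replication genes carry binding letters for E2F factors, the activators of S phase genes, and since these members fell together their promoters were searched. The RefSeq windows (GRCh38.p14, from 250 bases before to 50 after each start) were read on both strands for TTTGGCGC, TTTCCCGC and TTTCGCGC, which do not contain one another. At least 1 of them was in 14 of the 26 S phase genes with a window, in 9 of the 14 called members with one, and in 2.74% of all 35116 promoters. Members were counted by gene and the background by promoter window, so these shares have unlike units. Members that were not called, PCNA among them, carried matches too. The stretches below surround a match in 5 genes that fell (log2 changes -0.25 for MCM3, -0.26 for MCM7, -0.30 for CDT1, -0.20 for GINS2 and -0.17 for POLA1), each 5′ to 3′ on the gene's own strand with the matched letters, or their reverse complement, in capitals. MCM7 kept its call without any 1 library, MCM3, GINS2 and POLA1 each lost theirs without 3 of the 6 (0.064 to 0.076, 0.057 to 0.079 and 0.054 to 0.11) and CDT1 without 5 (0.053 to 0.12).
MCM3, chr6:52284893-52284932, minus strand: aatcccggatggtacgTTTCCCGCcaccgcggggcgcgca
MCM7, chr7:100101561-100101600, minus strand: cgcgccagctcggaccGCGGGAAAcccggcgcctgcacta
CDT1, chr16:88803738-88803777, plus strand: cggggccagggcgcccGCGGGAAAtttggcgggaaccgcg
GINS2, chr16:85688962-85689001, minus strand: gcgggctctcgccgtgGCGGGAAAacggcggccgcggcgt
POLA1, chrX:24693765-24693804, plus strand: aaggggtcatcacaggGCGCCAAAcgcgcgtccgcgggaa
In these 5 promoters the match began 174, 187, 35, 31 and 137 bases before the start, in the order shown. A match is a run of letters only; binding was not measured.

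Sterol synthesis rose as a set of small, even steps. Of 25 genes of sterol synthesis and uptake, 14 rose (56%), 0 fell, 24 changes were above 0 and the median was 0.224. HMGCS1, which makes the precursor of mevalonate, read 640, 746 and 719 CPM on day 6 and 870, 975 and 889 CPM on day 7 (log2 change 0.38 ± 0.07, adjusted p = 0.00054). INSIG1, the sterol-regulated anchor of the SREBP pathway, read 66.2, 67.2 and 64.7 CPM and then 81.3, 87.3 and 80.3 CPM (0.33 ± 0.05, adjusted p = 0.00011). CYP51A1, the lanosterol demethylase, went from 156 ± 12.3 CPM to 194 ± 12.2 CPM (0.31 ± 0.06, adjusted p = 0.0022). The days did not overlap in any of the 3, whose calls held without any 1 library. The 14 rises became 9 without any single day 6 library, 8 without day 7 replicate 2 and 9 without day 7 replicate 3. The 9-letter sterol element TCACNCCAC was in 1 of the 18 members with a window (SREBF2, which rose by 0.17 and lost its call without 4 of the 6 libraries, 0.11 to 0.16) and in 1.13% of all promoters. Here too members were counted by gene and the background by promoter window.

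Fatty acid genes showed 4 rises and 0 falls among 18. ACSS2, which makes acetyl-CoA from acetate, read 38.6, 38 and 39.1 CPM and then 48.6, 51.6 and 54.8 CPM (log2 change 0.42 ± 0.07, adjusted p = 0.00018). SCD, the stearoyl-CoA desaturase, rose from 2074 ± 67.1 CPM to 2401 ± 53.7 CPM (0.21 ± 0.04, adjusted p = 0.0028). Both were clear of overlap, while FADS1 (adjusted p = 0.037) was not called without any 1 of the 6 libraries; the 4 rises became 2 without day 6 replicate 2, day 7 replicate 1 or day 7 replicate 2.

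Glucose genes went both ways. The glucose transporter SLC2A1 fell from 672, 647 and 601 CPM to 499, 422 and 506 CPM (log2 change -0.43 ± 0.08, adjusted p = 0.00046), and the hexokinase HK2 from 48.1 ± 1.4 CPM to 40.5 ± 1.76 CPM (-0.25 ± 0.05, adjusted p = 0.0011). The neuronal enolase ENO2 rose from 87.6 ± 4.11 CPM to 111 ± 9.64 CPM (0.35 ± 0.08, adjusted p = 0.0047), a call lost without day 7 replicate 3 (0.054). Among 24 glycolysis genes 2 rose (8.33%, beside 3.43% of all genes tested) and 3 fell (12.5%, beside 2.9%). The rises became 1 without day 6 replicate 2, day 6 replicate 3 or day 7 replicate 1 and 0 without day 7 replicate 3. None of 45 nuclear-encoded oxidative phosphorylation genes was called by edgeR (2 upward and 3 downward at an unadjusted p below 0.05, 1 higher by DESeq2), and none of 13 mitochondrially encoded proteins (0 and 0). PIK3IP1, an inhibitor of PI3-kinase, rose from 3.3 ± 0.267 CPM to 6.3 ± 0.448 CPM (0.93 ± 0.12, adjusted p = 1.6e-06).

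Ribosome production genes and heat shock genes fell. Of 26 ribosome biogenesis and MYC target genes, 11 fell, 0 rose and all 26 changes were below 0, with a median of -0.151. RRP9, a factor of pre-ribosomal RNA processing, went from 23.9 ± 1.9 CPM to 18.7 ± 1.3 CPM (log2 change -0.35 ± 0.08, adjusted p = 0.005). The count became 7 without day 6 replicate 3, day 7 replicate 1 or day 7 replicate 2. Of 12 heat shock genes 6 fell, among them the co-chaperone DNAJB1, at 154, 151 and 162 CPM and then 130, 131 and 132 CPM (-0.25 ± 0.04, adjusted p = 8.2e-05). HSPA1A and HSPA1B, near-identical HSP70 genes that can share reads, fell by 0.29 (SE 0.09) and 0.28 (SE 0.06); HSPA1A lost its call without 5 of the 6 libraries (0.051 to 0.24), while HSPA1B kept it without any 1. The 6 became 3 without day 6 replicate 2, day 6 replicate 3 or day 7 replicate 2 and 2 without day 7 replicate 1. Proteasome genes fell in 4 of 31, and in 0 without day 6 replicate 3, day 7 replicate 1 or day 7 replicate 2. The unfolded protein response list had 0 of 18 called (1 each way at an unadjusted p below 0.05, 1 lower by DESeq2). In the ATF4 and amino acid response list 1 of 34 fell (2.94%, beside 2.9% of all genes tested).

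Some genes of the added signals' pathways were called. Among 16 Hedgehog pathway genes 4 fell (25%, beside 2.9% of all genes tested) and 0 rose, with 14 changes below 0. HHIP, a secreted inhibitor induced by the pathway, read 7.07, 7.57 and 6.62 CPM and then 4.53, 4.89 and 4.75 CPM (log2 change -0.58 ± 0.11, adjusted p = 0.00082). The co-receptor GAS1 went from 20 ± 0.406 CPM to 15.1 ± 1.05 CPM (-0.40 ± 0.08, adjusted p = 0.00069), and SCUBE2, which helps release the ligand, from 4.58 ± 0.776 CPM to 2.47 ± 0.721 CPM (-0.86 ± 0.20, adjusted p = 0.0062). All 3 were lower in every day 7 library than in any day 6 library and held without any 1 library. With limma on the deposited TPM values HHIP and SCUBE2 were not called under any of 3 settings, their changes shrinking to -0.0313 and -0.341. The target genes most used as readouts did not pass: PTCH1 stood at 457 ± 40.6 CPM and 438 ± 28.1 CPM (adjusted p = 0.79), and GLI1 at 31.5 ± 2.86 CPM and 25.7 ± 1.52 CPM (adjusted p = 0.085), the latter called when days 6 and 7 were fitted alone.

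Of 19 retinoic acid pathway genes 1 rose and 1 fell (5.26% each, beside 3.43% and 2.9% of all genes tested). The receptor RXRG read 7.07, 7.18 and 6.1 CPM and then 13.2, 12.3 and 11.5 CPM (log2 change 0.86 ± 0.16, adjusted p = 0.00069), with no overlap. RXRA fell by 0.19 (SE 0.05, adjusted p = 0.022), a call lost without day 6 replicate 1 (0.16), day 7 replicate 1 (0.051) or day 7 replicate 2 (0.14), and the direct target RARB did not pass (50.9 ± 3.31 CPM and 44.5 ± 1.61 CPM, adjusted p = 0.2). WNT4, a secreted Wnt ligand, rose from 4.53 ± 0.841 CPM to 8.23 ± 1.52 CPM (0.85 ± 0.14, adjusted p = 0.00016).

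The HOX genes, which set position along the body axis, gave 1 call. With edgeR none of 12 genes of HOX groups 1 to 4 was called, though 1 rose and 4 fell at an unadjusted p below 0.05 and DESeq2 called 1 of them lower. None of 4 tested of groups 9 to 13 was called (1 at an unadjusted p below 0.05, 0 by DESeq2). Of 11 genes of groups 5 to 8, 1 rose (9.09%, beside 3.43% of all genes tested). HOXC6, of limb-level spinal cord, went from 35.5, 27.7 and 32 CPM to 46.3, 41.3 and 44.7 CPM (log2 change 0.47 ± 0.10, adjusted p = 0.0044), and lost its call without day 6 replicate 2 (0.052). Its transcripts overlap those of neighbouring HOXC genes on the same strand. HOXC8, its neighbour, was at 1.68, 1.6 and 3.01 CPM and then at 2.61, 4.38 and 2.81 CPM, with overlap (adjusted p = 0.13). HOXB4 was at 82.1 ± 3.74 CPM and 77.7 ± 3.69 CPM (adjusted p = 0.46).

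Where these lists gave calls in 1 direction only, the other direction was checked at an unadjusted p below 0.05 and with DESeq2. In the intermediate and dorsal progenitor list 1 gene was higher at an unadjusted p below 0.05, and 1 was lower in the ion channel list, 2 in the gliogenic list and 1 in the oligodendrocyte list, with 0 called by DESeq2 in each. Both counts were 0 for the pan-neuronal, synaptic, receptor, temporal factor, Hedgehog, S phase, G2 and M phase, heat shock, ribosome, proteasome, sterol and fatty acid lists. Several named genes lie over another gene on the opposite strand (GRIK1, SCN3A, NID2, GRIP2, PAX6, MCM2, DNAJB1 and ACSS2 among them), and since the strand used in counting is not given, reads of the partner cannot be told apart.

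**Figure D4:**
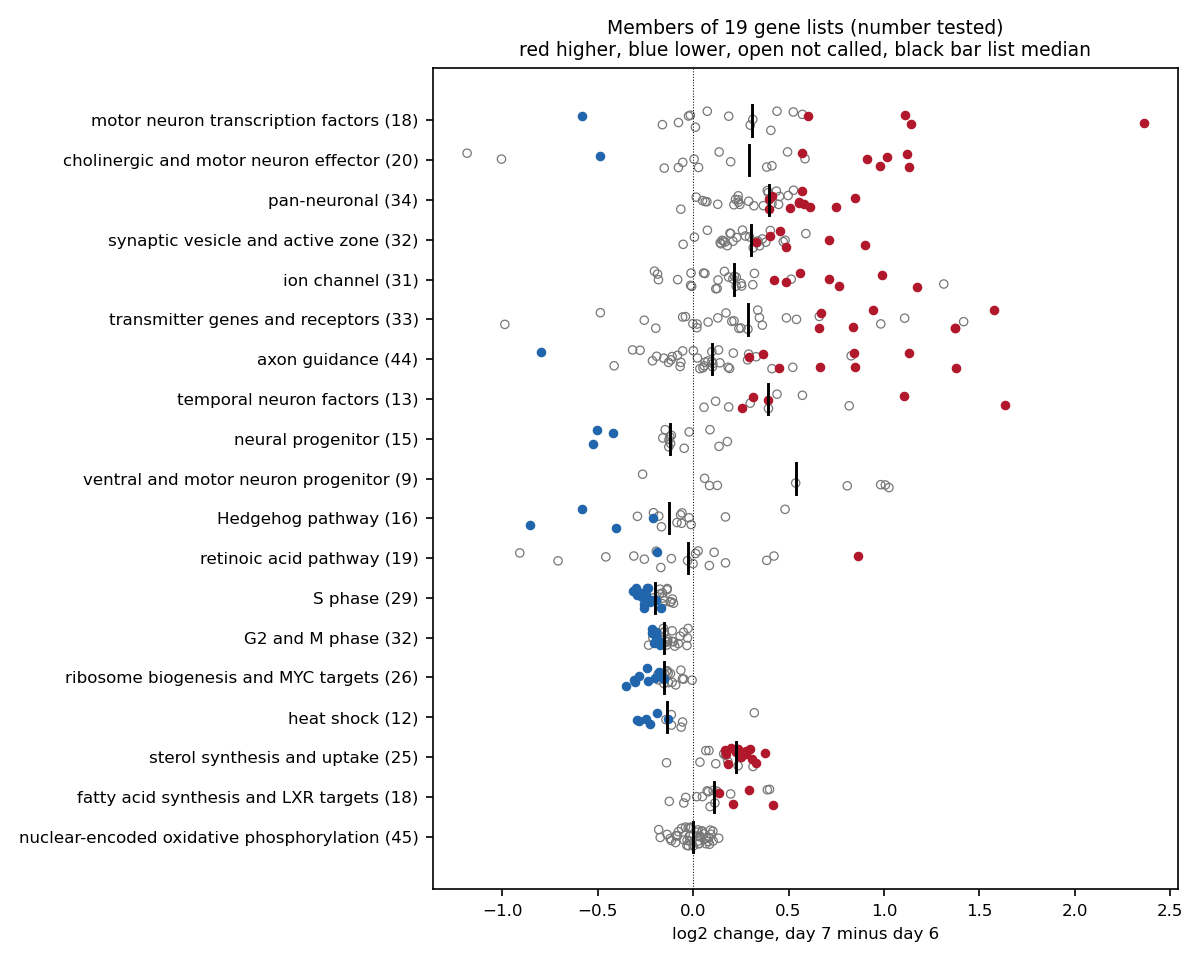
Log2 change from day 6 to day 7 (horizontal axis) for the tested members of 19 gene lists (rows, number tested in brackets); each point is 1 gene, red if higher, blue if lower and open if not called, and black bars are list medians. Neuronal lists spread to the right with changes up to 2.36 (ISL2), S phase and G2 and M phase members all lie just left of 0, sterol genes lie just right of it, and oxidative phosphorylation genes center on it.

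Among glial lists, 8.33% of gliogenic and 33.3% of oligodendrocyte genes rose, beside 3.43% of all genes tested. The glutamate transporter SLC1A2, known from radial glia and astrocytes, rose from 65.2, 65.1 and 64.6 CPM to 110, 115 and 104 CPM (log2 change 0.76 ± 0.09, adjusted p = 1.5e-06), which together with EDNRB made 2 rises among 24 gliogenic genes; EDNRB (adjusted p = 0.021) was called without day 6 replicate 1 and lost without each of the other 5 (0.055 to 0.08). The astrocyte-program factors did not pass: NFIA stood at 0.842, 0.924 and 1.22 CPM and then 0.881, 2.38 and 1.15 CPM, with overlap (adjusted p = 0.34), NFIB at 0.667 ± 0.0137 CPM and 1.17 ± 0.385 CPM (adjusted p = 0.12) and SOX9 at 59.1 ± 4.95 CPM and 67.4 ± 8.18 CPM (adjusted p = 0.18). Among 9 tested oligodendrocyte genes 3 rose, GPR17 (lost without day 6 replicate 3, 0.075, or day 7 replicate 2, 0.072) and MYRF (lost without 5 of the 6 libraries, 0.067 to 0.13) among them, but SOX10, MAG and MOG, defining markers of the lineage, were below 1 CPM, and without day 6 replicate 3 the count was 0, without day 6 replicate 2, day 7 replicate 1 or day 7 replicate 2 it was 1. Of 10 tested neuromesodermal progenitor genes 2 fell, NKX1-2 and CDX2, and CDX2 lost its call without day 7 replicate 2 (0.058). The summed level of 11 neuromesodermal progenitor genes was 15.3 to 15.4 CPM on day 6 and 9.88 to 11.1 CPM on day 7, with the homeobox gene NKX1-2 at 6.02 ± 0.508 CPM and 4.17 ± 0.232 CPM (log2 change -0.53 ± 0.12, adjusted p = 0.0068).

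Days 5 and 8 bracket the interval and share no library with it, so they gave a reading of the called genes in other cultures. Among the 666 genes that rose, 649 (97.4%) were higher on day 8 than on day 5 and 619 (92.9%) were called higher; among the 564 that fell, 558 were lower and 544 (96.5%) called lower. Over all genes tested, 23.1% were called higher and 22.7% lower between days 5 and 8, so the 619 made up 13.8% of the genes higher over the longer interval and the 544 made up 12.3% of those lower. ISL2, for example, was at 0.122 CPM on day 5 and 14.2 CPM on day 8 (log2 change 6.81, adjusted p = 1.2e-13), and RELN at 1445 CPM and 247 CPM (-2.55, adjusted p = 2.0e-18).

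**Figure D5:**
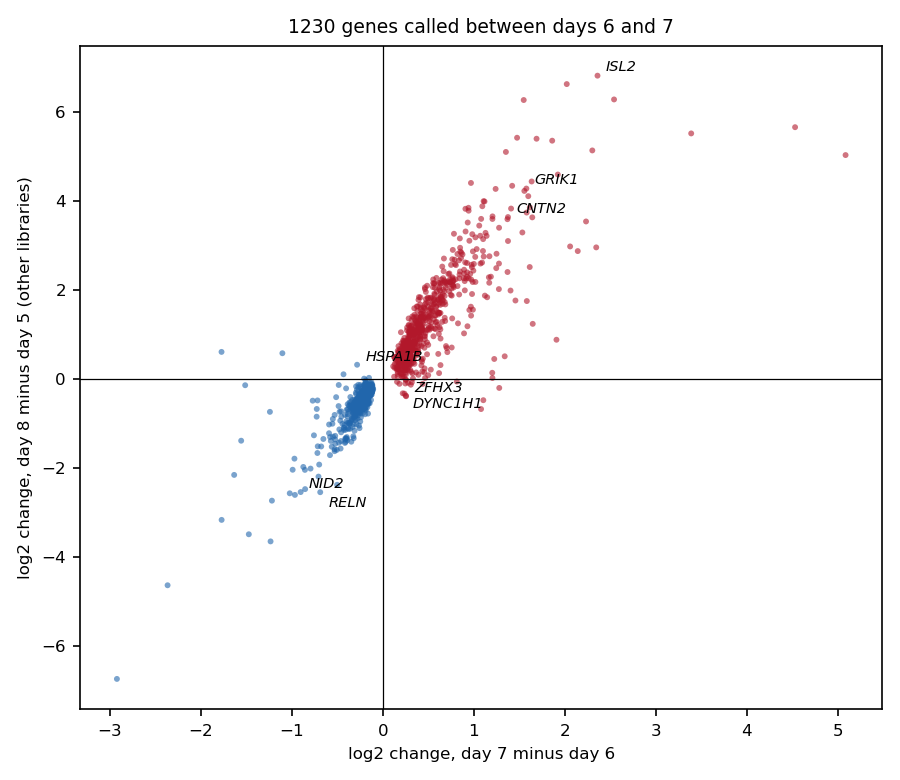
Log2 change from day 5 to day 8 (vertical axis) against log2 change from day 6 to day 7 (horizontal axis), which share no library, for the 1230 called genes; red points rose and blue points fell from day 6 to day 7. Of the 666 red points 649 lie above 0 on the vertical axis and 558 of the 564 blue points lie below it, with ZFHX3 and DYNC1H1 among those on the opposite side.

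A handful of called genes ran the other way over the bracketing days. ZFHX3, DST, DYNC1H1 and AP000787.1 were among those that rose from day 6 to day 7 and were called lower on day 8 than on day 5, and HSPA1B did the reverse; they were named after their values were seen. ZFHX3, a large homeodomain and zinc finger factor, read 386, 332 and 328 CPM on day 6 and 442, 428 and 379 CPM on day 7, with day 7 replicate 3 below day 6 replicate 1, after 405 CPM on day 5 and before 309 CPM on day 8. DYNC1H1, the dynein heavy chain, read 998, 883 and 933 CPM and then 1220, 1116 and 983 CPM, also with overlap. Both lost their calls without 4 of the 6 libraries (adjusted p = 0.14 to 0.2 and 0.13 to 0.31).

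Several of these genes are long, and transcript length moved with the comparison. Of the 6 genes that ran the other way, 4 have an annotated transcript of 10000 bases or more. So did 11.6% of the genes that rose, 2.13% of those that fell and 3.63% of all tested. The median log2 deviation of 551 such long genes with a mean of at least 10 CPM from their mean was -0.0157, -0.00123 and -0.0327 in the day 6 libraries, 0.0837, 0.0959 and 0.0136 in the day 7 libraries, and -0.104 to -0.0556 on day 8. After a correction for transcript length within each library, added after the data were seen, 692 genes were higher and 512 lower, 614 and 460 of them the same genes. Under this correction 125 of the 137 named called genes kept their calls. The other 12 lost them, ZFHX3, DYNC1H1 and PCLO among them. The cause of the shift with length was not tested.

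The step was also set against other 1-day steps, in libraries not shared with it. Between days 4 and 5, 767 genes rose (3.95%) and 540 fell (2.78%), and between days 8 and 9, 2032 rose (10.5%) and 2138 fell (11.0%). In a test of the difference between steps, 57 genes (0.293%) changed otherwise from day 6 to 7 than from day 4 to 5, 20 of them among the 666 and 6 among the 564. MEGF10 was one, since it rose more from day 4 to 5 (difference in log2 -0.86, adjusted p = 0.029). Against the step from day 8 to 9 the difference passed for 2265 genes (11.7%), among them 316 of the 666 (47.4%), and 108 of those 316 were called lower from day 8 to 9. CNTN2 was at 771 CPM on day 8 and 581 CPM on day 9, and its 2 steps differed by 1.78 on the log2 scale (adjusted p = 1.5e-05). Without replicate 1, 2 or 3 of every day the 57 became 5 to 19 and the 2265 became 515 to 1557.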

How the data were processed

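RNA of H9-derived cultures was sequenced from polyadenylated libraries, per the labels. Per the submitters' processing notes, the authors used bcl2fastq 2.20.0 to split the reads by library and RSEM, on GRCh38, to estimate counts; aligner, RSEM version, annotation and strand setting: not given in the sources used here. The deposited expected counts (92.5% whole numbers) were rounded. The deposited TPM values, which sum to 999999 to 1000001 per library, served as an alternative unit. Gene names and positions came from GENCODE 29 (57895 IDs matched, 338 did not) and promoters from RefSeq.

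Genes were kept by edgeR's filterByExpr, scaled by TMM and fitted with edgeR 4.0.16 in R 4.3.3 as quasi-likelihood models on all 45 libraries with day as the factor (30 residual degrees of freedom), contrasting day 7 with day 6; p-values were Benjamini-Hochberg adjusted over 19436 genes. SEs are the log2 change over the square root of F. CPM are on the TMM scale, ± is SD over 3 libraries, and library totals ran from 22835854 to 39066286. With 3 libraries a day an exact permutation test of 1 gene could not go below p = 0.1. The fit was tested on simulated data. Alternatives used DESeq2 1.42.0, limma 3.58.1, other filters, units and fewer libraries. Named genes were the 12 largest protein-coding rises and 12 falls at 10 CPM or more without overlap, up to 4 called members of each of 54 lists by size of change, and a panel of 36 genes. The comparison, lists and panel were chosen with earlier results of these data known. Some named genes are not reported here.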

Additional observations from a re-analysis of the deposited data

Results flagged for a closer look

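The step from day 6 to 7 was tested against other 1-day steps measured in other libraries. It differed from the step from day 4 to 5 for 57 genes. MEGF10, the engulfment receptor, rose by less (difference in log2 -0.864), and the mucin-like membrane protein gene PARM1 had the more negative step from day 6 to 7 (difference -0.743).

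Against the step from day 8 to 9, 2265 genes differed. Genes with a larger rise, or a rise in place of a fall, from day 6 to 7 included CNTN2 (difference in log2 1.78), MEGF10 (1.27), MNX1 (1.35), EEF1A2 (1.21), SLC18A3 (0.632), FRY (0.678), RGS8 (1.02) and FABP3 (2.36). FABP3 was at 20.1 CPM on day 8 and 7.52 CPM on day 9. Among the genes that fell from day 6 to 7, GRIP2 (-0.479), PARM1 (-0.754) and ALPL (-0.43) had the more negative step and FGFR4 (0.755) the less negative one than from day 8 to 9. Whether any of these differences belongs to the days or to the libraries cannot be told apart with 1 set of 3 libraries a day.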

How the results depend on the processing

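None of the named called genes changed direction under any alternative run, and 18 of the 137 named called genes kept their call in all 19 settings, among them CNTN2, MEGF10, SLIT3, EEF1A2, SLC18A3, ROBO3, RELN, LIN28A and INSIG1. The number of genes called was the less stable result. Without replicate 1, 2 or 3 of every day, which leaves 2 libraries a day, 53 to 516 genes were higher and 23 to 385 lower, 35 to 233 and 9 to 52 of them by at least 1.5-fold; 75 to 814 (1163 with all libraries) kept their direction as calls from day 5 to 8. The differences from the steps of days 4 to 5 and 8 to 9 then numbered 5 to 19 and 515 to 1557. With single libraries of days 6 and 7 left out, 348 to 458 genes were higher and 234 to 433 lower, 147 to 205 and 22 to 47 by at least 1.5-fold.

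With no filter on low counts, 298 genes were lower, 761 kept their direction and 1474 differed from the step of days 8 to 9, over 37223 genes tested, which enlarges the adjustment. DESeq2 called 854 higher and 702 lower, and 105 genes in place of 57 differed from the step of days 4 to 5. At an adjusted p below 0.01 the counts were 271 higher and 178 lower (119 and 16 by 1.5-fold), 438 keeping direction, and 20 and 1048 differing from the other steps. With limma on log2(TPM + 1) they were 407 and 232 (114 and 15), 595, 36 and 1324; with a pseudocount of 0.1, 357 and 200 (15 lower by 1.5-fold), 517, 20 and 1213; and with no filter, 302 and 173 (99 and 12), 406, 29 and 935. In these 3 settings 48, 59 and 67 of the named called genes lost their calls. Those lost in all 3 included FGFR4, CHAF1A, KCNA2, HHIP, SCUBE2, HES5, VSX1, FOXP2, SLC10A4, RAB3A and PCLO. They also included CDT1, GINS2, POLA1, BUB1B, CDKN1C, RXRA, HSPA1A, MYRF, JUND, TEF, H2AFZ, ZFHX3 and DYNC1H1. The cause of the lower counts on TPM was not tested.

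DESeq2's size factors in edgeR gave 676 and 496, and days 6 and 7 fitted alone gave 772 and 488. The replicate numbers do not pair the days: same-numbered libraries deviated with r = 0.453, -0.0519 and -0.413. With the replicate block 665 genes were higher and 550 lower. With 3 libraries a day, a gene that was not called may still have changed by a small amount.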

Other observations

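Several lists of stress, signalling and growth genes gave 1 or 2 calls of many members. Among 25 immediate early genes JUND alone rose (4% of the list, beside 3.43% of all genes tested). It went from 81.5 ± 5.16 CPM to 96 ± 4.38 CPM (log2 change 0.23 ± 0.07, edgeR adjusted p = 0.027). It was not called without day 6 replicate 2 (0.18), day 7 replicate 2 (0.085) or day 7 replicate 3 (0.15), nor without day 6 replicate 3 (0.07). Of 17 p53 target genes FDXR and AEN fell by 0.29 and 0.22 on the log2 scale (11.8% of the list, beside 2.9% of all genes tested). With edgeR at an unadjusted p below 0.05, 6 p53 targets were lower and 0 higher. FDXR lost its call without day 6 replicate 1 (0.063) or day 7 replicate 1 (0.067) and AEN without 3 of the 6 libraries (0.064 to 0.084), which left 0 calls without day 7 replicate 1 and 1 without day 6 replicate 1 or day 7 replicate 2. Of 19 circadian clock genes TEF alone fell (5.26%, beside 2.9% of all genes tested), by 0.34 with overlapping libraries. Its call was lost without day 6 replicate 1 (0.07), day 6 replicate 2 (0.13) or day 7 replicate 2 (0.11). The glucose-responsive gene TXNIP read 34.5, 40.4 and 26 CPM on day 6 and 33, 34.6 and 36.9 CPM on day 7.

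Of 16 histone genes of polyadenylated RNA, 1 rose, 1 fell (6.25% each, beside 3.43% and 2.9% of all genes tested) and 14 were not called. H1F0, the linker histone of resting and differentiated cells, rose from 127, 130 and 111 CPM to 160, 153 and 167 CPM (log2 change 0.38 ± 0.08, adjusted p = 0.0014). H2AFZ, a histone variant abundant in dividing cells, went from 399 ± 6.49 CPM to 360 ± 3.87 CPM (-0.15 ± 0.05, adjusted p = 0.047) and was not called without any 1 of the 6 libraries (0.069 to 0.13).

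MKI67, which did not pass the test over this step, was lower over the wider interval, at 894 CPM on day 5 and 514 CPM on day 8 (log2 change -0.80, adjusted p = 1.3e-12).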
